A study of Homo sapiens with 6 samples.

Results

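The 10 genes described here encode enzymes that activate fatty acids, make them longer or less saturated, and place them in phospholipids: ACSL1, ACSL3, ACSL4, ACSL5, FADS1, FADS2, SCD, ELOVL5, LPCAT3 and MBOAT1. They were taken by gene symbol from a table of 29489 genes, in a choice made with earlier results of these data known, and all 10 symbols had 1 row each. The cells were SU-DHL-4, a B cell lymphoma line of human origin in long use, and their poly(A) RNA was sequenced in a group labelled CON and a group labelled KD. The labels name no gene or reagent for KD and no treatment, time or clone, and the series title is about ZHX2, ferroptosis and SLC3A2. Each group had 3 columns of FPKM (fragment counts scaled for transcript length and library size), of which replicates 2 and 3 were used here, 4 libraries in all.

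Ferroptosis is a form of cell death driven by iron and the peroxidation of membrane lipids. It needs polyunsaturated fatty acids in phospholipids, because these oxidise easily, whereas monounsaturated fatty acids make membranes harder to oxidise. A fatty acid is first joined to coenzyme A by an acyl-CoA synthetase, may then be desaturated and elongated in the endoplasmic reticulum, and is finally transferred to a lysophospholipid by an acyltransferase. ACSL4 and LPCAT3 are the members best known for loading polyunsaturated fatty acids into membranes, SCD makes the monounsaturated ones, and MBOAT1 is known as a suppressor of ferroptosis through phospholipid remodelling.

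The replicate 1 columns were not used: in KD dividing the mean of replicates 2 and 3 by 1.2 gave their value in 29489 of 29489 genes, and in CON the divisor was 1.1 for 29488 genes (relative tolerance 1e-09). ZHX2 stood at 38.5 and 36.7 FPKM in CON against 11.0 and 11.0 FPKM in KD. ZHX2 is the gene whose CON replicate 1 value departs from that rule, and in the authors' deposited table its linear fold change is listed as -4.62, so the KD label was not checked by it. All 8 listed B cell markers reached 1 FPKM in all 4 libraries, and their sum was 809 and 819 FPKM in CON and 627 and 639 FPKM in KD. Markers of other cells were low: the 5 T and NK cell markers with a row summed to between 3.35 and 4.04 FPKM, the 4 of epithelium and fibroblasts to between 6.42 and 7.68 FPKM, and the 4 myeloid ones to 0.0502 and 0.0542 FPKM in CON against 0.523 and 0.467 FPKM in KD. The 2 erythroid markers with a row were at 0 in CON and summed to 0.158 and 0.0916 FPKM in KD. Each of the sums over other cells was higher in both KD libraries than in both CON libraries, and their part in the results below was not tested. In such bulk samples, fewer cells of a type and less RNA per cell cannot be told apart. The labels do not say whether the libraries of a group stem from separate cultures, and each p-value therefore rests on a spread between libraries that may be technical.

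Of the 10 enzymes, 9 reached 1 FPKM in all 4 libraries and were tested. Of these, 6 rose in KD (ACSL1, ACSL3, LPCAT3, ELOVL5, FADS2 and ACSL4), 2 fell (ACSL5 and SCD), and FADS1 did not pass (limma across all tested genes, Benjamini-Hochberg adjusted p under 0.05). Such calls were common: 58.6% of the 11916 tested genes passed, 27.6% upward and 31.1% downward. The CON and KD values of all 9 tested enzymes did not overlap, which was also so for 81.6% of all tested genes. The median log2 change of the 9 enzymes was 0.20, against -0.02 over all tested genes, and the median size of their change was 0.37, against 0.27. Log2 changes are differences of log2(FPKM + 1), which understates the change of low genes. Of the 9, ACSL1 alone changed by more than 1.5-fold.

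**Figure D1:**
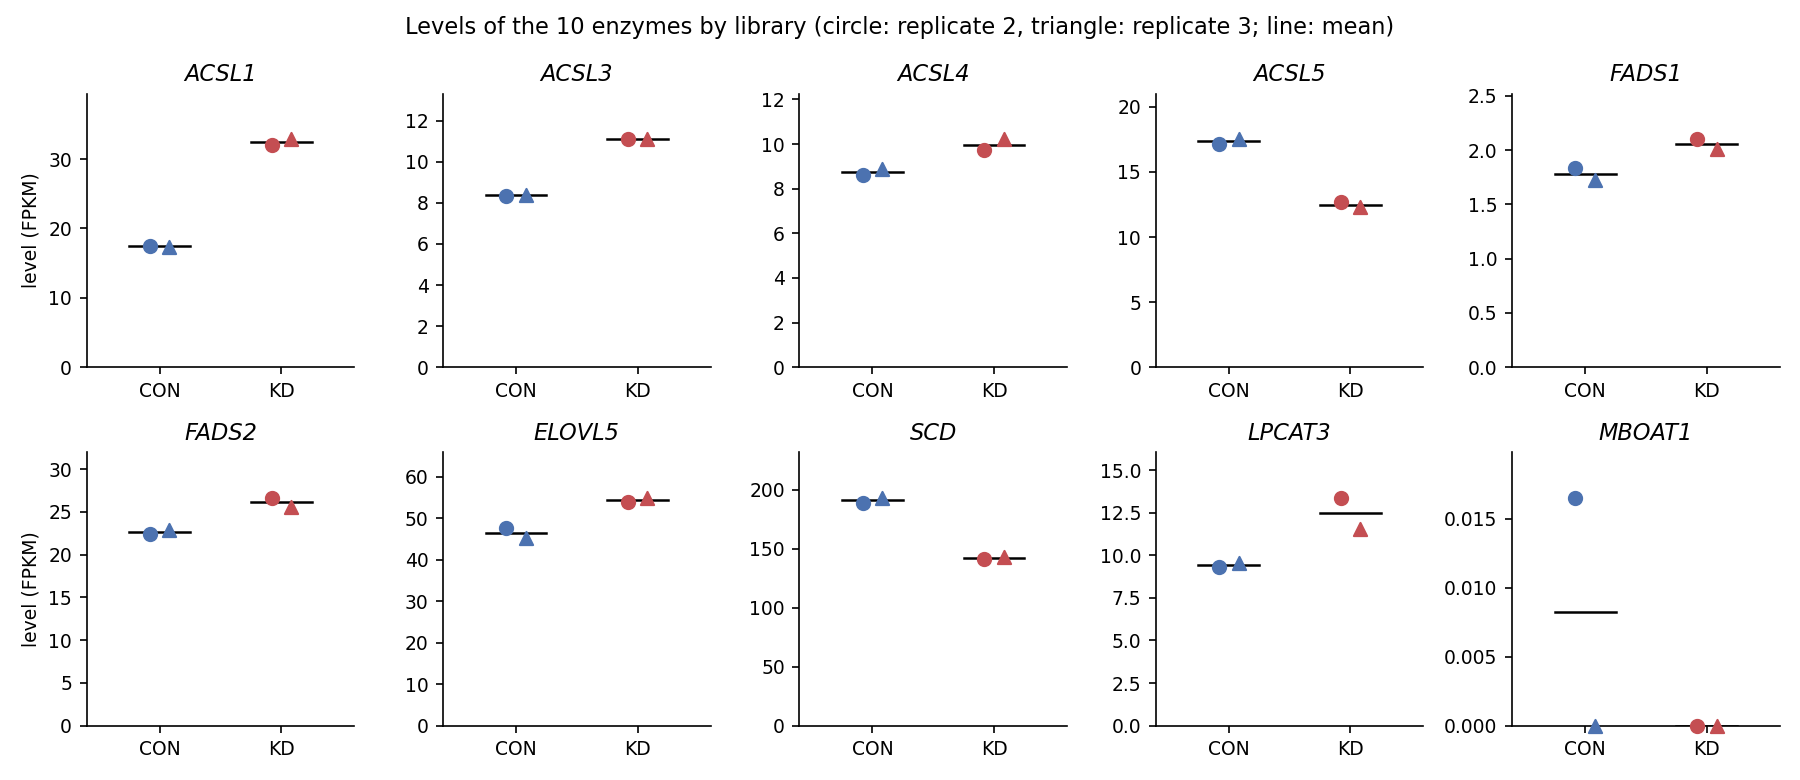
Levels in FPKM (y axis, from 0, with its own range in each panel) of the 10 enzymes in CON (blue) and KD (red); circles are replicate 2, triangles replicate 3 and lines the mean of both. The groups are apart in every panel except MBOAT1, with ACSL5 and SCD lower in KD and the other 7 higher.

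Promoters were read for 9 of the 10 genes from RefSeq (GRCh38.p14), as 250 bases before and 50 after each start. Only 1 start was taken for each gene, although 13 transcripts are listed for ACSL1 and 6 for ACSL5. Which starts these cells use was not tested. Those of ACSL1 and ACSL5 are shown because these genes had the largest rise and the largest fall, and those of SCD and ELOVL5 because they moved in opposite directions and both hold 2 copies of the letters CCAAT. Capitals mark CCAAT and GGGCGG on either strand, so that ATTGG and CCGCCC are the same matches read on the other strand. Each is written 5′ to 3′ on the strand of its gene. The positions are chr4:184825919-184826218 (minus strand) for ACSL1, chr10:112375018-112375317 (plus strand) for ACSL5, chr10:100346983-100347282 (plus strand) for SCD and chr6:53348901-53349200 (minus strand) for ELOVL5.
ACSL1: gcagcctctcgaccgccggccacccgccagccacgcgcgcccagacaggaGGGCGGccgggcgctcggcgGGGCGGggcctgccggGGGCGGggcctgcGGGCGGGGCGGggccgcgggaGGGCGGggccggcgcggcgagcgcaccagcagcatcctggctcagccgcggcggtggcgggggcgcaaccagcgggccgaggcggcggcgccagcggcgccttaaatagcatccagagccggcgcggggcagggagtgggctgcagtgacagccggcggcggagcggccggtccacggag
ACSL5: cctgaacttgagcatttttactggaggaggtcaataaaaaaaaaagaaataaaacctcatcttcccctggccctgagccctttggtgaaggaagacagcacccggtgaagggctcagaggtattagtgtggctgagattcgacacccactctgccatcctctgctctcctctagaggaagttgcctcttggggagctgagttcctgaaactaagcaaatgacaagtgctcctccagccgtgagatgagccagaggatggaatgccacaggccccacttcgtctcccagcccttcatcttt
SCD: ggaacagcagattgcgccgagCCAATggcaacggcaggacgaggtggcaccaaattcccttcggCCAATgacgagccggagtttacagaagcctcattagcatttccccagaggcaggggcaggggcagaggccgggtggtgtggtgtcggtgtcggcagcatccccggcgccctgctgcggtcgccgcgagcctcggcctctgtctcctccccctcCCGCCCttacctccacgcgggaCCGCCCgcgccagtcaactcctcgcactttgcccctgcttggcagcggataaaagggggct
ELOVL5: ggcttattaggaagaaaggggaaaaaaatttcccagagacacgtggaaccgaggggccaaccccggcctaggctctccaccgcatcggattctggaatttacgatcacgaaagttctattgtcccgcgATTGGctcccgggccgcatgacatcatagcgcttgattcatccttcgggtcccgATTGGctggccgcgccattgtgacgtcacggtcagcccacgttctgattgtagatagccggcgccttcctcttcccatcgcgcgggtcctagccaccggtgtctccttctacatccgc

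The ACSL1 window held GGGCGG 6 times, 2 of them overlapping by 1 base, and its GC content was 82.3%, against a median of 65.3% over the 8425 promoters of tested genes. The ACSL5 window held neither motif and its GC content was 51.0%. GGGCGG was found in 6 of the 9 windows (ACSL1, ACSL3, ACSL4, FADS1, SCD and LPCAT3) and in 71.6% of the promoters of tested genes. CCAAT was found in 4 of the 9 (ACSL3, ELOVL5, SCD and LPCAT3) and in 38.6% of the promoters of tested genes. LPCAT3 held it 3 times, and the 4 genes include risers as well as SCD, so genes with these letters moved in both directions. The sterol regulatory letters TCACNCCAC, where N is any base, were in none of the 9 windows and in 1.18% of the promoters of tested genes. CACGTG and TGANTCA were each found in ELOVL5 and in no other window, and in 10.7% and 3.79% of those promoters. The letters TGATGNAA and ACGTGC, also searched on both strands, were in none of the 9 windows and in 1.63% and 9.15% of those promoters. A match is a description of the letters and not a site of binding.

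Among the acyl-CoA synthetases, ACSL1 and ACSL5 moved most, and in opposite directions. ACSL1, the synthetase that supplies acyl-CoA for oxidation and lipid synthesis in many tissues, whose promoter is printed above with its run of GGGCGG letters, stood at 17.5 and 17.3 FPKM in CON against 32.0 and 32.9 FPKM in KD. Both KD libraries lay well above both CON libraries, and the group means, 17.4 ± 0.143 and 32.5 ± 0.604 FPKM (SD, n = 2), differed 1.86-fold. The log2 change was 0.86 (SE 0.0340, 95% interval 0.77 to 0.95, limma adjusted p = 1.43e-04), and 7.73% of tested genes changed by more in either direction. ACSL5, a synthetase of mitochondria and endoplasmic reticulum that is abundant in the intestine, was at 17.2 and 17.5 FPKM in CON against 12.7 and 12.3 FPKM in KD. It was thus about level with ACSL1 in CON and well under it in KD. Its log2 change was -0.44 (SE 0.0405, 95% interval -0.55 to -0.34, limma adjusted p = 0.00112), from a mean of 17.3 ± 0.256 to 12.5 ± 0.315 FPKM (SD, n = 2).

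ACSL3 and ACSL4, which are close relatives within the family, rose by smaller amounts. ACSL3, a synthetase of the endoplasmic reticulum and lipid droplets that is known for activating monounsaturated fatty acids, was at 8.35 and 8.41 FPKM in CON against 11.1 and 11.1 FPKM in KD. The libraries of each group nearly coincided, and the log2 change was 0.37 (SE 0.0418, limma adjusted p = 0.00202). ACSL4, which prefers arachidonic acid and other polyunsaturated fatty acids, was at 8.62 and 8.89 FPKM in CON against 9.72 and 10.2 FPKM in KD. The lower KD library exceeded the higher CON library by less than 1 FPKM, and the mean rose by 13.9% (log2 change 0.17, 95% interval 0.04 to 0.30, limma adjusted p = 0.0352). This call did not last when any 1 of the 4 libraries was left out (adjusted p from 0.0501 to 0.158). Such a fit has 1 residual degree of freedom, and the spread of the lone library is taken to be that of the other group. The call for ACSL4 was also lost with no filter on low values (adjusted p = 0.0750) and under quantile scaling (adjusted p = 0.0572).

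The mix of synthetase transcripts differed between the groups. ACSL1 made up 33.9% and 33.2% of the summed FPKM of the 4 synthetases in CON, and 48.8% and 49.5% in KD. ACSL5 made up 33.2% and 33.6% in CON, and 19.4% and 18.5% in KD. So ACSL1 gained 15.6 percentage points and ACSL5 lost 14.5, while ACSL3 went from 16.1% to 16.8% and ACSL4 from 16.9% to 15.1% (means, n = 2). Taken over all tested synthetases and acyl-CoA binding proteins, ACSL1 gained 8.20 points and the share of ACSL5 fell by 4.14. The level of ACSL4 was thus higher in KD and its share of the 4 lower, although over that wider list its share was 0.18 points higher. The sum of the 4 was 51.7 and 52.1 FPKM in CON and 65.6 and 66.5 FPKM in KD, 27.2% higher. The ratio of ACSL1 to ACSL5 was 1.02 and 0.989 in CON and 2.52 and 2.68 in KD. For each of these shares, for the sum and for the ratio, the exact two-sided permutation p was 0.33, the smallest that 2 against 2 libraries can give.

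**Figure D2:**
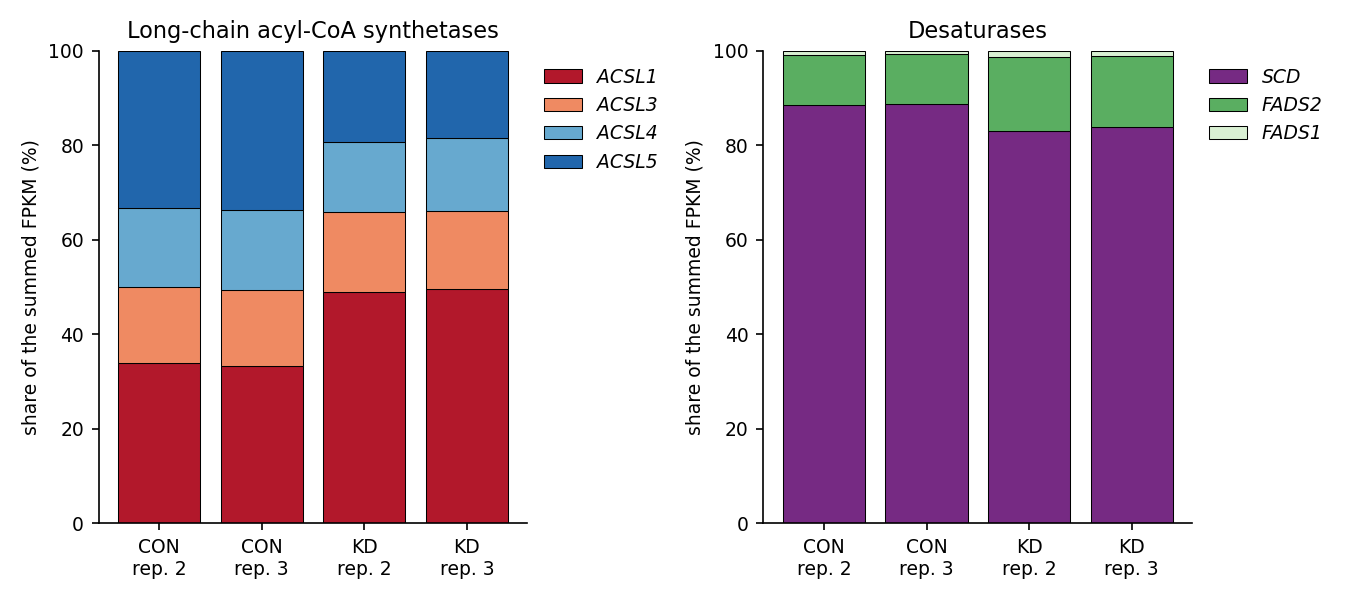
Share in percent (y axis, 0 to 100) of each gene in the summed FPKM of the 4 long-chain acyl-CoA synthetases (left) and of the 3 desaturases (right), 1 bar for each library. The ACSL1 part is larger and the ACSL5 part smaller in both KD bars, and the SCD part is slightly smaller in both KD bars.

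SCD, the stearoyl-CoA desaturase that makes oleate and palmitoleate from saturated fatty acids, was the most abundant of the 10 enzymes and fell. It stood at 189 and 193 FPKM in CON against 141 and 143 FPKM in KD, and 1.15% of tested genes had a higher mean level. Both KD libraries lay far below both CON libraries relative to the spread, with means of 191 ± 3.38 and 142 ± 1.53 FPKM (SD, n = 2). The log2 change was -0.42 (SE 0.0238, 95% interval -0.48 to -0.36, limma adjusted p = 3.29e-04).

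Of the 3 enzymes that desaturate and elongate polyunsaturated fatty acids, FADS2 and ELOVL5 rose slightly in KD and FADS1 did not pass the test. FADS2, which opens the pathway from the dietary essential fatty acids, was at 22.4 and 22.9 FPKM in CON against 26.7 and 25.6 FPKM in KD (log2 change 0.20, SE 0.0374, limma adjusted p = 0.00980). ELOVL5, the elongase of the same pathway, was at 47.6 and 45.1 FPKM in CON against 53.9 and 54.9 FPKM in KD (log2 change 0.23, SE 0.0367, limma adjusted p = 0.00597). Their groups did not overlap, and their mean levels were 15.3% and 17.3% higher in KD. The FADS2 call was lost without CON replicate 2 (adjusted p = 0.0543). FADS1, which catalyses the later desaturation that yields arachidonic acid, was at 1.83 and 1.72 FPKM in CON against 2.10 and 2.01 FPKM in KD. Its interval for the log2 change ran from -0.07 to 0.35 around 0.14 and held 0 (limma adjusted p = 0.20), so neither a rise like that of FADS2 nor the lack of one could be shown.

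SCD was lower in both KD libraries than in both CON libraries, and FADS2, ELOVL5 and ACSL4 were higher. Ratios between SCD and these genes therefore could not overlap between the groups, and they give only the size of the difference. The ratio of SCD to FADS2 was 8.41 and 8.46 in CON and 5.29 and 5.61 in KD, so that it fell by 35.4%, and that of SCD to ELOVL5 was 3.96 and 4.29 in CON and 2.62 and 2.61 in KD. The ratio of ACSL4 to SCD was 0.0457 and 0.0460 in CON and 0.0689 and 0.0713 in KD, 52.9% higher. In each of these 3 ratios the groups did not overlap, which follows from the levels of the genes (exact two-sided permutation p = 0.33, the smallest possible). By contrast the ratio of FADS2 to FADS1 was 12.2 and 13.3 in CON and 12.7 and 12.7 in KD, and that of ELOVL5 to FADS2 was 2.12 and 1.97 against 2.02 and 2.15. In these last 2 ratios the KD values overlapped those of CON (exact permutation p = 1.0 and 0.667). SCD made up 88.6% and 88.7% of the summed FPKM of the 3 desaturases in CON and 83.1% and 83.9% in KD, and from CON to KD that sum fell by 20.9%. With the tested desaturases FADS3, SCD5, DEGS1 and DEGS2 added to the sum, the share of SCD fell by 7.78 points.

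**Figure D3:**
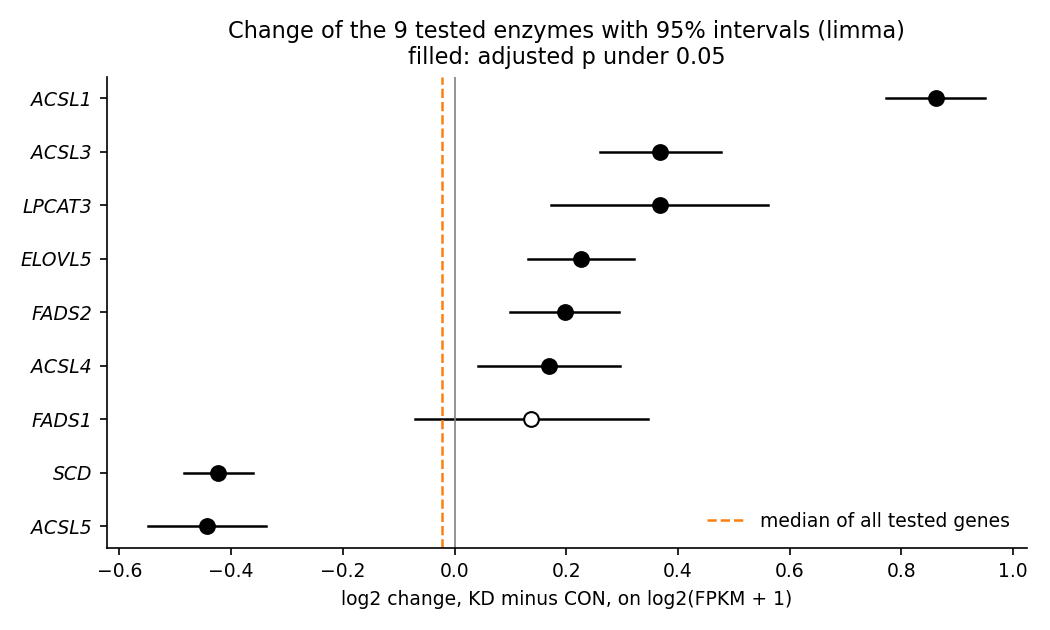
Log2 change from CON to KD on the log2(FPKM + 1) scale (x axis) of the 9 tested enzymes, with 95% intervals from limma; filled points passed an adjusted p of 0.05 and the dashed line is the median of all tested genes, -0.02. ACSL1 stands apart at 0.86, SCD and ACSL5 lie near -0.4, and the interval of FADS1 crosses 0.

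Of the 2 acyltransferases, LPCAT3 was tested and higher in KD, and MBOAT1 was at or near 0. LPCAT3, which transfers polyunsaturated acyl chains to lysophosphatidylcholine and lysophosphatidylethanolamine, was at 9.32 and 9.53 FPKM in CON against 13.4 and 11.6 FPKM in KD. The KD libraries were both higher but differed from each other, with a coefficient of variation of 10.3%, the widest of the 9 enzymes, against 1.59% in CON. The log2 change was 0.37 (SE 0.0750, 95% interval 0.17 to 0.56, limma adjusted p = 0.0122), and the call was lost without CON replicate 2 (adjusted p = 0.0537) and with no filter on low values (adjusted p = 0.0626). MBOAT1, which places oleate in lysophosphatidylethanolamine and lysophosphatidylserine, was listed at 0.0165 FPKM in CON replicate 2 and at 0 in the other 3 libraries. It did not pass the filter on low values and no fold change is given.

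Some of these genes share the genome with others, and for the strand setting of the counting no source used here gives an answer. In the GENCODE 29 annotation of GRCh38, LPCAT3 lies on chromosome 12 from 6976186 to 7018510 on the minus strand, and 65.6% of its 4725 exonic bases are also exonic in EMG1, a ribosome assembly factor on the opposite strand. EMG1 was at 6.07 and 6.28 FPKM in CON against 6.97 and 6.64 FPKM in KD (log2 change 0.12, limma adjusted p = 0.109). The level of LPCAT3 is therefore uncertain, and the part of EMG1 reads in it was not tested. FADS1 (chromosome 11, 61799625 to 61829318, minus strand) lies wholly within the span of FADS2 (61792980 to 61867354, plus strand), although they share 490 exonic bases, 4.79% of those of FADS1. FEN1, a DNA repair nuclease on the same strand within that span, shares 49 exonic bases with FADS2 and was at 47.0 and 47.1 FPKM in CON against 43.6 and 42.3 FPKM in KD. ACSL5 (chromosome 10, 112374018 to 112428380, plus strand) shares 144 exonic bases with ZDHHC6 on the opposite strand, which was between 3.68 and 4.15 FPKM in all 4 libraries, and 5.29% of its exonic bases with the antisense gene AL157786.1, listed at 0.0369 to 0.0961 FPKM. ACSL1 (chromosome 4, 184755595 to 184826818), ACSL3 (chromosome 2, 222860934 to 222944639), ACSL4 (chromosome X, 109624244 to 109733403), ELOVL5 (chromosome 6, 53267398 to 53349179), SCD (chromosome 10, 100347124 to 100364834) and MBOAT1 (chromosome 6, 20102145 to 20212399) share at most 2.34% of their exonic bases with any other gene of that annotation.

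The authors' deposited table gives the same directions. It lists a fold change of 1.86 for ACSL1, 1.33 for ACSL3, 1.32 for LPCAT3, 1.17 for ELOVL5, 0.745 for SCD and 0.721 for ACSL5. These equal, to the digits given, the ratios of the mean FPKM of replicates 2 and 3. The shared directions are therefore no separate check of the changes. In the authors' deposited table, 8 of the 10 genes have a q-value under 0.05, the exceptions being FADS1 (0.0578) and MBOAT1 (0.686). In the authors' deposited table none of the 10 is marked significant, and the smallest log2 fold change in size among its 2583 marked genes is 1.0. The authors' deposited table assigns the KEGG pathway Ferroptosis to 5 of the 10 genes, the 4 synthetases and LPCAT3, among 37 genes in all. It assigns Biosynthesis of unsaturated fatty acids to FADS1, FADS2, ELOVL5 and SCD, among 24 genes, and PPAR signaling to 6, the synthetases, FADS2 and SCD, among 51.

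The other genes of fatty acid handling were listed in 13 groups. Of 193 listed symbols 129 were tested, of which 48 rose and 43 fell, 37.2% and 33.3%, against 27.6% and 31.1% of all tested genes. Their median log2 change was 0.04. They thus moved in both directions, and the groups differed in their counts.

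The genes listed under SREBP and LXR control and under fatty acid synthesis did not share 1 direction. Among 12 tested genes of SREBP and LXR control, 1 rose and 6 fell, and their median log2 change was -0.07. The share called was 58.3% here and 75.0% in the fatty acid synthesis group, beside 58.6% of all tested genes. SREBF1, the transcription factor known for driving fatty acid synthesis and SCD, was at 37.6 and 39.3 FPKM in CON against 28.2 and 27.3 FPKM in KD (log2 change -0.46, limma adjusted p = 8.68e-04). SREBF2, the paralogue known for cholesterol synthesis, fell by 0.37 on the log2 scale (limma adjusted p = 4.37e-04), and MLX, the partner of the carbohydrate-response factors, by 0.54 (adjusted p = 0.00159). INSIG1, which holds SREBP in the endoplasmic reticulum and is itself an SREBP target, was at 127 and 129 FPKM in CON against 223 and 231 FPKM in KD (log2 change 0.82, limma adjusted p = 8.16e-05). Among 8 genes of fatty acid synthesis, 2 rose and 4 fell. Those that fell include OXSM (log2 change -0.55, limma adjusted p = 0.0202), MECR (-0.44, adjusted p = 0.0332) and SLC25A1 (-0.11, adjusted p = 0.0188). The calls of OXSM, MECR and SLC25A1 were all lost with no filter on low values. FASN, the fatty acid synthase, was at 45.0 and 43.4 FPKM in CON against 59.2 and 58.4 FPKM in KD (log2 change 0.40, limma adjusted p = 6.64e-04), so that it was higher where SCD was lower. ACACB, an acetyl-CoA carboxylase of mitochondria, rose by 0.46 on the log2 scale (limma adjusted p = 0.00382). ACLY (log2 change 0.06, limma adjusted p = 0.0879) and ACACA (0.04, adjusted p = 0.569), also of this group, did not pass. The counts of this group changed with the settings, to 3 up and 2 down when the libraries were scaled without mitochondrial genes, where the SREBP and LXR group had 4 up and 6 down. Without CON replicate 3 the fatty acid synthesis group had 2 up and 0 down.

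Of 12 other acyl-CoA synthetases and acyl-CoA binding proteins, 4 rose and 4 fell. The share called was 66.7% in this group and among the thioesterases, 33.3% among the other desaturases and 100% in the elongation cycle. Over all tested genes it was 58.6%, with 27.6% upward and 31.1% downward. ACBD7 (log2 change 0.68, limma adjusted p = 9.52e-04) and ACBD3 (0.37, adjusted p = 0.00142), both acyl-CoA binding domain proteins, rose, and ACSF3, the malonyl-CoA synthetase of mitochondria, fell by 0.42 on the log2 scale (adjusted p = 0.00315). Among 3 thioesterases, which undo the work of the synthetases, ACOT8 of peroxisomes fell by 0.39 on the log2 scale (limma adjusted p = 0.00193), as did ACOT7 by 0.21 (adjusted p = 0.0148). The ACOT7 call was lost with no filter on low values and without CON replicate 2 or CON replicate 3. Of 9 other desaturases and their electron donors 3 rose and 0 fell, of which CYB5B, a cytochrome of the outer mitochondrial membrane, had the smallest adjusted p (log2 change 0.41, limma adjusted p = 0.00311). All 6 tested genes of the elongation cycle passed, 4 upward and 2 downward. HACD3, a dehydratase, and TECR, the reductase of the last step, were higher in KD (log2 changes 0.29 and 0.33, limma adjusted p = 0.00673 and 0.0109). ELOVL6, the elongase of palmitate, was lower (log2 change -0.30, limma adjusted p = 0.0164), a call lost without CON replicate 2 (adjusted p = 0.09) or KD replicate 2 (adjusted p = 0.0642). Without CON replicate 2 the elongation group had 3 up and 0 down, and without CON replicate 3 it had 2 up and 1 down. The synthetase and binding group had 3 up and 2 down without CON replicate 2. Among the thioesterases 1 call was left when CON replicate 2 or CON replicate 3 was left out, and among the other desaturases 1 was left whichever of the 4 libraries was left out.

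Of 12 other acyltransferases of phospholipid and glycerolipid synthesis, 6 rose and 3 fell. The share called was 75.0% here and 60.0% both in the peroxisomal and in the phospholipase group below. Over all tested genes it was 58.6%, with 27.6% upward and 31.1% downward. LPCAT4 was at 7.86 and 7.39 FPKM in CON against 11.5 and 11.7 FPKM in KD (log2 change 0.55, limma adjusted p = 0.00108), beside 0.37 for LPCAT3, a difference that was not tested. LPCAT1, which makes disaturated phosphatidylcholine in lung, rose by 0.34 on the log2 scale (limma adjusted p = 0.00381) and GPAT4, which starts glycerolipid synthesis, by 0.38 (adjusted p = 0.00283). AGPAT3, which makes phosphatidic acid, fell by 0.39 on the log2 scale (limma adjusted p = 0.00292). Without CON replicate 2 this group had 4 up and 1 down. TMEM164, an acyltransferase known for making ether phospholipids with polyunsaturated chains, was at 4.24 and 3.87 FPKM in CON against 3.28 and 3.17 FPKM in KD (log2 change -0.26, limma adjusted p = 0.0287). The TMEM164 call was lost when any 1 library was left out (adjusted p from 0.0625 to 0.158), in fits where the other group alone gives the spread. In the group of peroxisomal and ether lipid steps, 7 of 15 rose and 2 fell, with the peroxisome assembly factor PEX3 (log2 change 0.76, limma adjusted p = 9.66e-04) and the fatty acyl-CoA reductase FAR1 (0.36, adjusted p = 0.00207) higher and PEX10 (-0.67, adjusted p = 0.00484), another assembly factor, lower in KD. Without CON replicate 2 or CON replicate 3 this group had 4 up and 2 down. Of 10 genes of fatty acid release by phospholipases A2 and related enzymes, 4 rose and 2 fell, and 2 rose and 1 fell when CON replicate 2 or CON replicate 3 was left out. Of these PLA2G15, the phospholipase of lysosomes, had a log2 change of 0.83 (limma adjusted p = 0.00144) and ABHD3, a phospholipase of medium-chain phosphatidylcholine, of -0.29 (limma adjusted p = 0.00479).

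Of 8 tested genes that oxygenate polyunsaturated fatty acids or work on the products, 4 rose and 3 fell. The share called was 87.5%, beside 58.6% of all tested genes. POR, the cytochrome reductase known for feeding electrons to lipid peroxidation, was at 22.5 and 22.1 FPKM in CON against 36.9 and 35.6 FPKM in KD (log2 change 0.67, limma adjusted p = 2.59e-04). ALOX5AP, which presents arachidonic acid to the lipoxygenase of leukotriene synthesis, was at 85.5 and 86.0 FPKM in CON against 45.0 and 41.2 FPKM in KD (log2 change -0.98, limma adjusted p = 2.14e-04). That lipoxygenase, ALOX5, was at 69.2 and 70.2 FPKM in CON against 55.1 and 54.5 FPKM in KD (log2 change -0.34, limma adjusted p = 6.64e-04). ALOX15, a lipoxygenase often studied in ferroptosis, was at most 0.0212 FPKM in any library.

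Most genes of the storage and lipid droplet group, which also holds lipases, rose, and most genes of mitochondrial oxidation fell. Over all tested genes, 27.6% rose and 31.1% fell. All 10 tested genes of triglyceride storage and lipid droplets passed, 8 upward and 2 downward, and their median log2 change was 0.49. HILPDA, a hypoxia-induced inhibitor of lipolysis, was at 5.52 and 5.55 FPKM in CON against 18.9 and 19.8 FPKM in KD (log2 change 1.64, limma adjusted p = 5.62e-05). PNPLA2, the triglyceride lipase, and LPIN1, a phosphatidate phosphatase, also rose (log2 changes 0.73 and 0.87, limma adjusted p = 1.55e-04 and 3.64e-04). The 2 that fell were LIPE, a lipase, whose call was lost without CON replicate 3 (adjusted p = 0.0729), and FITM2, a droplet budding factor, whose call was lost in 10 of 12 alternative settings. Without CON replicate 3 the storage group had 7 up and 0 down. Of 17 genes of mitochondrial oxidation 2 rose and 10 fell, and their median log2 change was -0.26. Those that fell include ECI1, an isomerase for unsaturated chains (log2 change -0.82, limma adjusted p = 0.00155), and the beta-oxidation enzymes HADH (-0.48, adjusted p = 9.92e-04) and HADHA (-0.38, adjusted p = 4.96e-04). CPT1A, the gate of mitochondrial import, was higher (log2 change 0.31, limma adjusted p = 0.00962), a call lost without CON replicate 2 (adjusted p = 0.0548). ACADVL, a long-chain dehydrogenase and the other gene that rose (log2 change 0.12, limma adjusted p = 0.0352), lost its call in 6 of 13 settings, and without CON replicate 2 the group had 0 up and 9 down. The medians of both groups kept their sign under each of the 12 alternative settings that use replicates 2 and 3 alone. Among 7 genes of uptake and binding 3 rose and 3 fell. With no filter on low values, and also with a replicate block, 2 rose and 2 fell, and LRP8 (up) and VLDLR (down) lost their calls. MFSD2A, the carrier of lysophosphatidylcholine with docosahexaenoic acid, was at 1.19 and 1.30 FPKM in CON against 8.87 and 9.70 FPKM in KD (log2 change 2.19, limma adjusted p = 9.05e-05).

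**Figure D4:**
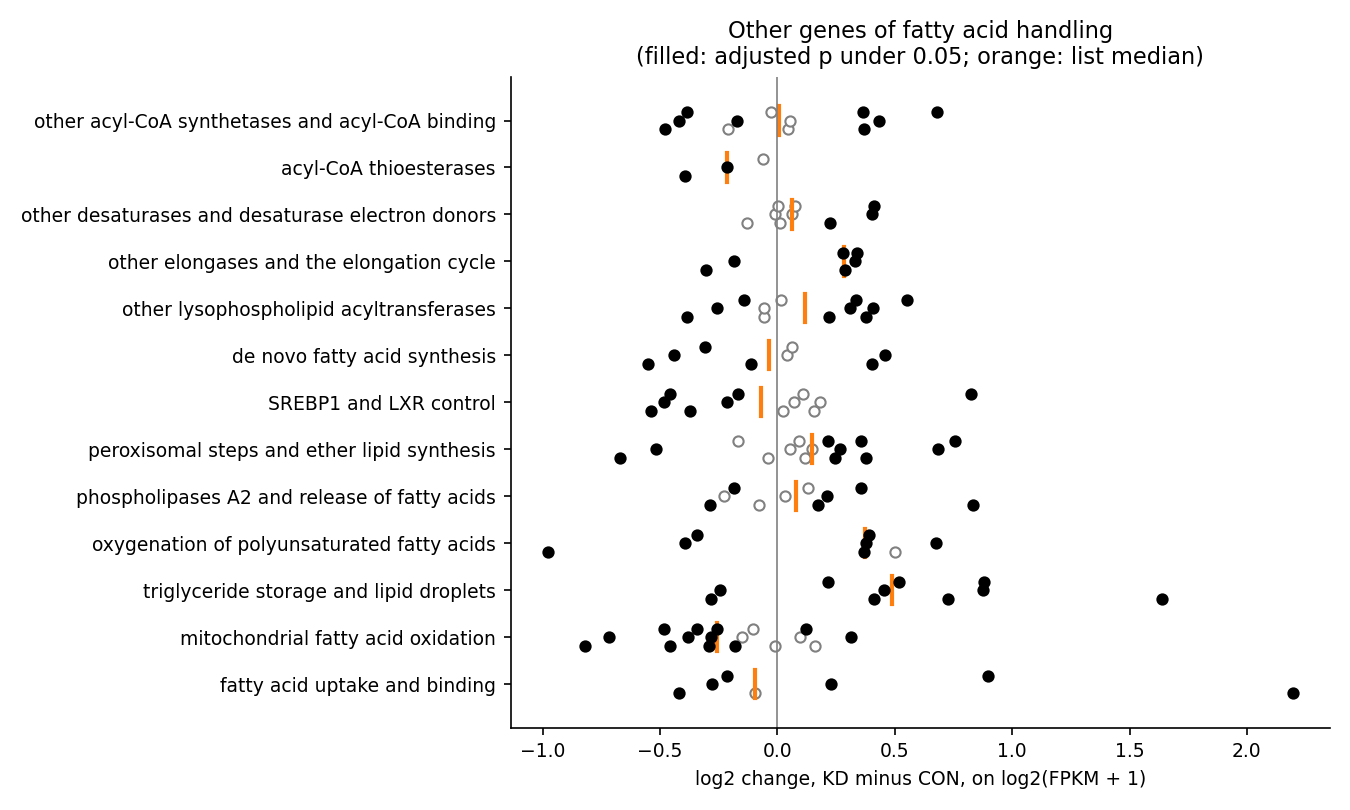
Log2 change from CON to KD on the log2(FPKM + 1) scale (x axis) of 129 tested genes in 13 groups of fatty acid handling; each point is a gene, filled where the adjusted p was under 0.05, and the orange mark is the median of the group. Genes of the storage and lipid droplet group lie mostly to the right (median 0.49). Mitochondrial oxidation genes lie mostly to the left (median -0.26), while most other groups spread to both sides.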

How the data were processed

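Poly(A) RNA of SU-DHL-4 was sequenced after marking the second strand with dUTP, per the labels' protocols. Per the submitters' processing notes, GRCh38 was used and the tools included HISAT2, StringTie, fastp and edgeR. Not given in the sources used here: their versions, roles and annotation. The authors deposited FPKM per gene and sample, with a linear fold change, its log2, and a p-value and q-value per gene, per the file headers. FPKM are not counts, so depth is unknown and no count model was fitted. An FPKM is relative to its library's total, and the FPKM of the 4 libraries summed to between 267622 and 273768.

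A gene was tested where 2 or more of the 4 libraries held 1 FPKM, which left 11916 of 29489. Values were fitted as log2(FPKM + 1) in limma 3.58.1 (R 4.3.3) by group alone, letting the prior variance follow the mean level, with two-sided p-values adjusted by Benjamini-Hochberg over all tested genes. The fit has 2 residual and 2.85 prior degrees of freedom. Shares and ratios were compared with an exact permutation test (scipy 1.17.1). The fit was tested on simulated data. The members and gene lists were chosen with earlier results of these data known. Genes named from a related list are among its 3 called genes a direction with the smallest adjusted p. ALOX15, ACLY, ACACA, the overlapping genes EMG1, FEN1 and ZDHHC6, and ZHX2 were named outside that rule. Alternatives were other pseudocounts, filters and scalings, no trend, a replicate block, all 6 columns, and each library left out.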

Additional observations from a re-analysis of the deposited data

How the results depend on the processing

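ACSL1, ACSL3, ACSL5, SCD and ELOVL5 kept their direction and their call under all 12 alternative settings that use replicates 2 and 3 alone, with log2 changes of 0.84 to 0.92, 0.35 to 0.42, -0.47 to -0.39, -0.44 to -0.37 and 0.19 to 0.28. In those 12, ACSL4 lost its call in 6, LPCAT3 in 2 and FADS2 in 1, and none of the 9 tested enzymes changed direction. Of the 9, 8 were called, 6 up and 2 down, beside 58.6% of all tested genes. With 1 library left out, 5 to 7 were called, 3 to 5 of them up, beside 42.1% to 49.9% of all tested genes. The fewest, 5, were called without CON replicate 2, where ACSL4 (adjusted p = 0.158), FADS2 (0.0543) and LPCAT3 (0.0537) were lost and the share over all tested genes was also lowest, 42.1%. Each of these fits leaves 1 residual degree of freedom, with the spread of the lone library assumed equal to that of the other group. With all 6 columns 5 were called, 3 up and 2 down; since replicate 1 is computed from replicates 2 and 3 with a different divisor in each group, this fit says nothing about the stability of a call. With the replicate block 8 were called, and 84 of the 129 related genes against 91 without it, beside 55.2% and 58.6% of all tested genes. The same-numbered libraries deviated together at r = 0.0047 over 11916 tested genes, and at -0.14 over the 4295 with a mean of at least 10 FPKM, so the numbers were not taken to pair the libraries. The loss of ACSL4 share reversed, to a gain of 0.18 points (exact permutation p = 0.667), over the wider list of synthetases and binding proteins. Other shares kept their direction. In the fits of all 4 libraries that tested 129 related genes, 84 to 92 of them were called, beside 55.2% to 58.6% of all tested genes. With no filter on low values 64 of 162 related genes were called, beside 18.5% of all genes. A stricter filter, an average of 5 FPKM, left 94 related genes, of which 70 were called, beside 68.5% of all genes kept. Fewer related genes were called in each fit with 1 library left out, where the share over all tested genes was also lower. Low levels limit FADS1 and MBOAT1 most, and with no depth given no counting interval can be set.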
